A study of Homo sapiens with 9 samples.

Results

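Condensin and chromatid separation genes were described in WI-38 cells with and without exposure to doxorubicin. The genes were chosen by name: SMC2, SMC4, NCAPD2, NCAPD3, NCAPG, NCAPG2, NCAPH, NCAPH2, ESPL1 and PTTG1. Of these 10 genes, 9 had a row among the 6499 genes of the authors' deposited table, and NCAPH2 was not analysed here. WI-38 cells are diploid fibroblasts of human embryonic lung, sampled here at population doubling 30. Control cells were given the DMSO carrier in place of drug, and doxorubicin cells were exposed to the drug at 1 μM over 12 h. Medium with DMSO followed in both for 48 h. Cells that received oridonin after doxorubicin were not analysed here. Each group had 3 libraries, and nothing in the labels says whether they came from separate cultures, so that p-values measure only the spread between these libraries.

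Condensins are ring-shaped ATPase complexes that fold chromatin into compact chromosomes for mitosis. Condensin I and condensin II share the ATPases SMC2 and SMC4 and differ in their other subunits, a kleisin that closes the ring (NCAPH or NCAPH2) and a pair of HEAT-repeat proteins (NCAPD2 and NCAPG, or NCAPD3 and NCAPG2). Condensin II resides in the nucleus through interphase, whereas condensin I meets the chromosomes once the nuclear envelope has broken down. Sister chromatids are held together by cohesin until separase, the protease encoded by ESPL1, cuts it. Securin, encoded by PTTG1, blocks separase until the anaphase-promoting complex (APC/C) marks securin for destruction.

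The table lists only genes that passed a fold change of 1.2 and a p of 0.05 in the authors' own comparison of the same libraries, so having a row already required a difference, and no test here is independent of that choice. Values are read as TPM, a level scaled by transcript length and library total. The header names no unit, and depth cannot be read from TPM. The listed genes summed to 543228 to 548178 TPM in the control libraries and to 586117 to 599670 TPM in the doxorubicin libraries. Of the 10 fibroblast markers, 5 had a row. The collagen genes COL1A1, COL1A2 and COL3A1 and the receptor gene PDGFRB were called lower, with log2 fold changes of -0.55, -0.38, -1.48 and -0.58, and the fibronectin gene FN1 was called higher, at 0.45. COL1A1 had 2825 ± 76.5 TPM in control and 1944 ± 237 TPM after doxorubicin (SD, n = 3 each). Summed, these 5 ran from 10287 to 10609 TPM in control and from 9409 to 11485 TPM after doxorubicin. None of the 4 endothelial markers had a row, and of the 5 leukocyte markers only CD68 and PTPRC did, with a sum of 45 to 49 TPM in control and 87.4 to 93.7 TPM after doxorubicin. The leukocyte-defining PTPRC was at 0.62 TPM or less in each library. The epithelial keratins KRT8, KRT18 and KRT19 summed to 135 to 150 TPM and to 283 to 307 TPM, while EPCAM and CDH1 had no row. The part of these markers in the results was not tested.

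Promoter sequences are shown because the 9 genes moved together, and because the CHR (cell cycle genes homology region) and the CCAAT box are elements known from promoters of genes that peak in G2 and mitosis. RefSeq windows on GRCh38.p14, from 250 bases before to 50 bases after a transcript start, matched all 9 genes. Each window was searched on both strands for TTTGAA or TTCGAA (CHR), CCAAT, and TTTCCCGC, TTTGGCGC, TTTGCCGC or TTTCGCGC (E2F). No match of these 3 classes overlaps one of another class, and in PTTG1 a CCAAT match overlaps its own reverse complement. The stretches below hold 200 bases from -170 to 29, counted from the transcript start at 0, and capitals mark the matches in the direction of the gene. They hold the genes of condensin I, the D subunit of condensin II at its downstream start, separase and securin.
NCAPG (chr4:17810809-17811008, plus strand): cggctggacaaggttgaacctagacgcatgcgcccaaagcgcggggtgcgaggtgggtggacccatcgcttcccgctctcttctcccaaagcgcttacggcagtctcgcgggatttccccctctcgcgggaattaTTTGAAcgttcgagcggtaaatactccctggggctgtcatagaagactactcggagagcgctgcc
NCAPH (chr2:96335596-96335795, plus strand): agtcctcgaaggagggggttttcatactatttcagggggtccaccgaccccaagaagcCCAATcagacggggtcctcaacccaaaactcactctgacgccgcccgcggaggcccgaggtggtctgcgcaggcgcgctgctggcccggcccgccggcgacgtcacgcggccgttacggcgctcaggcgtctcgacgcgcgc
NCAPD2 (chr12:6493932-6494131, plus strand): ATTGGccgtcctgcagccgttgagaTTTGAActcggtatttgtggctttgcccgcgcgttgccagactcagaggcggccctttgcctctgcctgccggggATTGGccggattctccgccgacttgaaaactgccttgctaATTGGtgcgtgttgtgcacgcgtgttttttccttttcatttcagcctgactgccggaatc
NCAPD3 (chr11:134223938-134224137, minus strand): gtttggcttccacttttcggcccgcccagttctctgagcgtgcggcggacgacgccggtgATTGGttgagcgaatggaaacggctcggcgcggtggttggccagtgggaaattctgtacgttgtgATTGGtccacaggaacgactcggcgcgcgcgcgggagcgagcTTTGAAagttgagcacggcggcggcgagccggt
ESPL1 (chr12:53268129-53268328, plus strand): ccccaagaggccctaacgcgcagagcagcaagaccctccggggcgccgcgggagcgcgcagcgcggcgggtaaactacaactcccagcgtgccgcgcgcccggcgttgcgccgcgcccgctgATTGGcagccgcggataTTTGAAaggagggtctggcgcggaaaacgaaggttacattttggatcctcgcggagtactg
PTTG1 (chr5:160421685-160421884, plus strand): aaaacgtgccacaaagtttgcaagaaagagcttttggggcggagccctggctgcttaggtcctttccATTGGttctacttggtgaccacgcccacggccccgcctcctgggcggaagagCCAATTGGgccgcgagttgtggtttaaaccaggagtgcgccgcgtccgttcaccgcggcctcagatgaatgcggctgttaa

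A CHR match was found for 7 of the 9 genes, namely SMC2, SMC4, NCAPD2, NCAPG, NCAPD3, NCAPG2 and ESPL1. It began at -35 in NCAPG, -31 in ESPL1, -75 in SMC4, -145 in NCAPD2 and -3 in SMC2, where it straddles the start. In NCAPD3 it began at -3 of the downstream start and was not found at the upstream one, and in NCAPG2 it began at 35, within the transcript. Of all 35116 promoter windows, 16.4% held a CHR match, and of the 4395 tested genes with a window 16.6% did in any of their windows. Among genes called lower after doxorubicin the share was 20.8%, and among genes called higher it was 11.4%. A CCAAT match was found for NCAPH, PTTG1, NCAPD3, NCAPD2 and ESPL1, or 55.6% of the 9 genes, against 44.8% of the tested genes and 45.9% of those called lower. Among the 9 genes an E2F match was found only in the downstream window of NCAPD3, at -249, and 7.6% of the tested genes and 8.8% of those called lower held such a match. NCAPH and PTTG1 held CCAAT matches and no CHR match. These matches describe letters in a window and not binding.

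All 9 genes were lower after doxorubicin, and in each of them every doxorubicin library lay below every control library. On log2(TPM + 1), limma was run over the 5721 genes that reached a mean of 1 TPM, as all 9 did, and a gene was called at a Benjamini-Hochberg adjusted p under 0.05 and a fold change over 1.2. All 9 were called lower, where 48.5% of the genes tested were called lower and 48.4% had every doxorubicin library below every control library. With a fold change over 2 required on this scale, 7 of the 9 were called, against 6.28% of the genes tested. SMC2 and NCAPD3 were not, though their means in TPM were 2.53- and 2.3-fold lower. The median log2 fold change was -2.15 over the 9 genes and -0.28 over all genes tested, and the latter was -0.02 after quantile normalization. Relative to the median of all genes, the changes ran from -0.69 for SMC2 to -2.55 for NCAPH. After quantile normalization all 9 were still called lower, where 1664 of the 5721 genes tested were called lower. The smallest changes were then -0.63 for NCAPD3 and -0.64 for SMC2. In RNA from whole cultures, fewer cells in division and less of these RNAs per cell cannot be told apart. An exact permutation test (two-sided) of each gene alone gave p = 0.1 for all 9, the smallest p possible with 3 libraries a group.

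**Figure D1:**
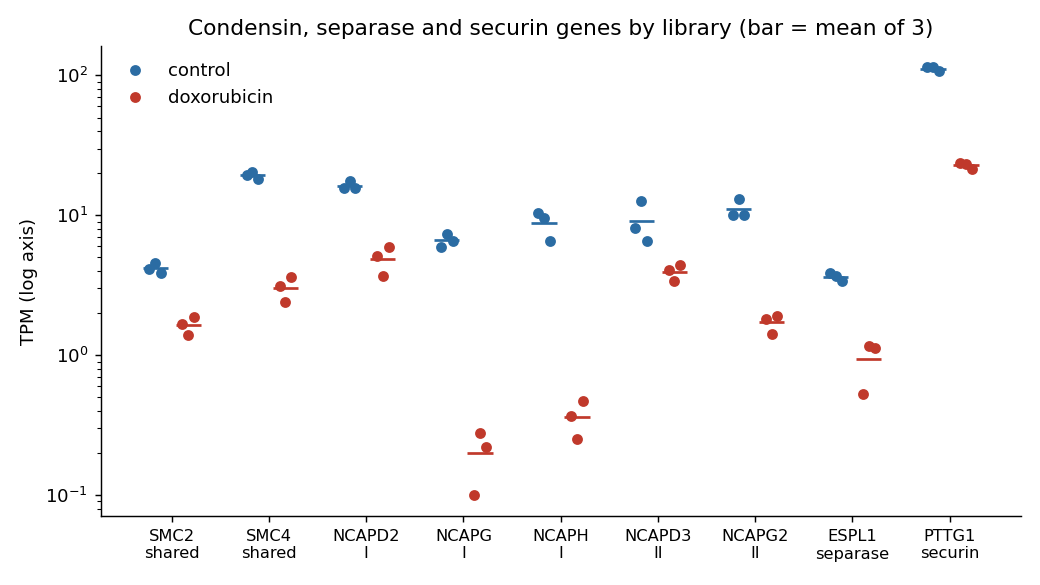
TPM of the 9 genes in each library on a log axis, with control in blue, doxorubicin in red and a bar at the mean of 3 libraries. No gene has overlapping groups, and NCAPG and NCAPH reach the lowest values, at most 0.28 and 0.47 TPM after doxorubicin.

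The ATPases that both condensins share fell by unequal amounts. SMC4 (ENSG00000113810, chromosome 3, 160399274 to 160434962 on GRCh38) had 19.37, 20.47 and 18.12 TPM in control libraries 1 to 3 and 3.11, 2.39 and 3.63 TPM in doxorubicin libraries 1 to 3. The mean was 6.35-fold lower in the treated group, and the log2 fold change was -2.34 (standard error 0.13, limma adjusted p = 3.37e-07). The groups were far apart, since the lowest ratio of a control to a doxorubicin library was 4.99. SMC2 (ENSG00000136824, chromosome 9, 104094260 to 104141417) had 4.13, 4.55 and 3.89 TPM in control and 1.68, 1.39 and 1.89 TPM after doxorubicin. Its mean was 2.53-fold lower, and the log2 fold change was -0.97 (standard error 0.13, limma adjusted p = 0.000126). The confidence intervals (95%) of the log2 fold changes, -2.64 to -2.04 for SMC4 and -1.25 to -0.69 for SMC2, did not overlap. SMC4 RNA exceeded SMC2 RNA 4.5- to 4.69-fold in the control libraries and 1.72- to 1.92-fold after doxorubicin, and the ranges of this ratio did not overlap.

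**Figure D2:**
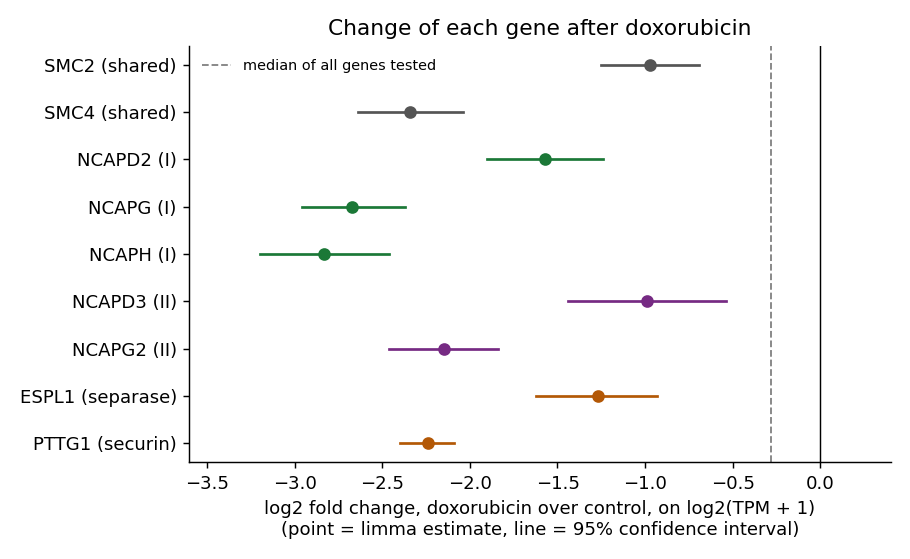
Log2 fold change of doxorubicin over control for each gene on log2(TPM + 1), with its 95% confidence interval and the median of all genes tested as a dashed line at -0.28. All 9 intervals lie below that line, with NCAPH lowest at -2.83 and SMC2 highest at -0.97.

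Among the subunits of condensin I, the kleisin NCAPH and the HEAT-repeat subunit NCAPG fell the most of the 9 genes, while NCAPD2 kept a larger part of its level. NCAPG (ENSG00000109805, chromosome 4, 17810902 to 17844862) had 5.98, 7.36 and 6.52 TPM in control and 0.1, 0.28 and 0.22 TPM after doxorubicin. The mean after doxorubicin was 3.02% of the control mean, and the pairs of libraries differed 21.4- to 73.6-fold. Its log2 fold change was -2.67 (standard error 0.13, limma adjusted p = 1.11e-07) and -4.53 with a pseudocount of 0.1, because the added TPM lowers the fold change of a gene so near 0. NCAPH (ENSG00000121152, chromosome 2, 96335787 to 96373845) had 10.34, 9.59 and 6.54 TPM in control and 0.37, 0.25 and 0.47 TPM after doxorubicin. Control library 3 was the lowest of its group, and still 13.9-fold above the highest doxorubicin library. The log2 fold change of NCAPH was -2.83 (standard error 0.17, limma adjusted p = 3.88e-07), rank 43 from the lowest of the 5721 genes tested, and NCAPG had rank 48. With a pseudocount of 0.1 NCAPH was at -4.27, above NCAPG, and by the means in TPM it was 24.3-fold lower and NCAPG 33.1-fold, so the order of both depends on the scale.

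NCAPD2 (ENSG00000010292, chromosome 12, 6493356 to 6531955), the other HEAT-repeat subunit of condensin I, had 15.63, 17.58 and 15.77 TPM in control and 5.13, 3.66 and 5.94 TPM after doxorubicin. Doxorubicin library 2 was the lowest. Its mean was 3.33-fold lower, and the log2 fold change was -1.57 (standard error 0.15, limma adjusted p = 1.46e-05), and its confidence interval of -1.90 to -1.24 did not meet those of NCAPG (-2.96 to -2.37) and NCAPH (-3.20 to -2.46). NCAPD2 made up 48.9%, 50.9% and 54.7% of the summed TPM of the condensin I subunits in the control libraries and 91.6%, 87.4% and 89.6% in the doxorubicin libraries. The share of NCAPG went from between 18.7% and 22.6% to between 1.79% and 6.68%, and that of NCAPH from between 22.7% and 32.4% to between 5.97% and 7.09%. These shares are values of RNA and say nothing of the assembled complex.

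**Figure D3:**
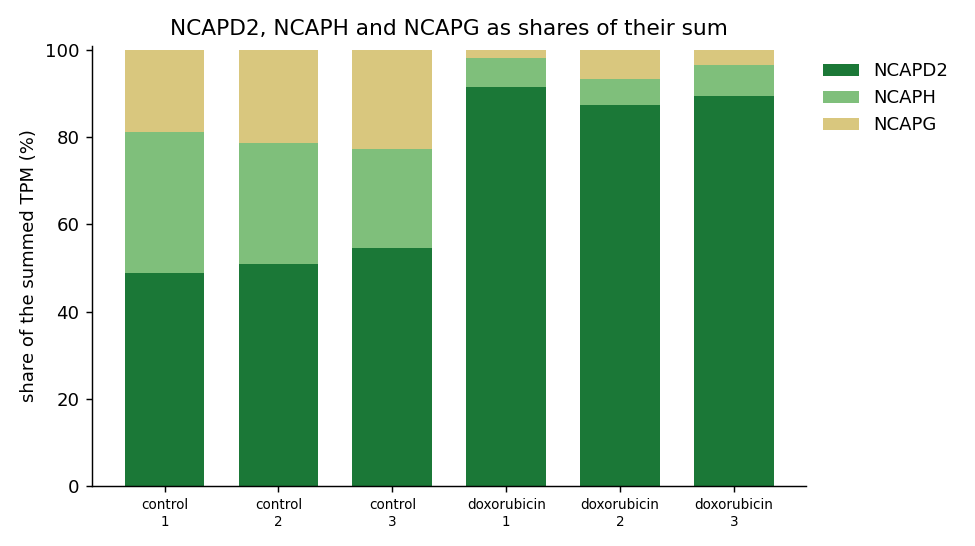
Share of NCAPD2, NCAPH and NCAPG in their summed TPM, in percent, for each of the 6 libraries. NCAPD2 takes 48.9% to 54.7% of the bar in the control libraries and 87.4% to 91.6% after doxorubicin.

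In condensin II, both measured subunits fell, and the confidence intervals of NCAPG2 (-2.46 to -1.84) and NCAPD3 (-1.44 to -0.54) did not overlap. NCAPG2 (ENSG00000146918, chromosome 7, 158631311 to 158704829) had 10.09, 13.06 and 10.1 TPM in control and 1.82, 1.41 and 1.92 TPM after doxorubicin. Its mean was 6.46-fold lower, and the log2 fold change was -2.15 (standard error 0.14, limma adjusted p = 8.67e-07). The pairs of libraries differed at least 5.26-fold, so that the groups were well apart. NCAPD3 (ENSG00000151503, chromosome 11, 134150119 to 134225454) had 8.18, 12.68 and 6.51 TPM in control and 4.08, 3.37 and 4.43 TPM after doxorubicin. Control library 2 stood highest in both genes, and for NCAPD3 the closest pair of libraries differed only 1.47-fold. The mean of NCAPD3 was 2.3-fold lower, and the log2 fold change was -0.99 (standard error 0.20, limma adjusted p = 0.00167), which was -0.75 without control library 2 (limma adjusted p = 0.00337). The kleisin of condensin II, NCAPH2, was not analysed here, so that the comparison of both complexes rests on 3 subunits of condensin I and 2 of condensin II.

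In the D and G pairs of counterpart subunits, condensin I was lower relative to condensin II after doxorubicin. This holds for counterparts only. NCAPG2 of condensin II was at -2.15 (6.46-fold lower) and NCAPD2 of condensin I at -1.57 (3.33-fold lower). Their confidence intervals, -2.46 to -1.84 and -1.90 to -1.24, overlapped. The ratio of NCAPD2 to NCAPD3 was 1.91, 1.39 and 2.42 in the control libraries and 1.26, 1.09 and 1.34 in the doxorubicin libraries. The groups did not overlap, but the lowest control ratio, that of control library 2, was close to the highest doxorubicin ratio. The ratio of NCAPG to NCAPG2 was 0.593, 0.564 and 0.646 in the control libraries and 0.0549, 0.199 and 0.115 in the doxorubicin libraries. NCAPG2 RNA was thus the more abundant of this pair in all 6 libraries, and by far the more abundant after doxorubicin. The mean TPM over subunits was 9.61 to 11.5 for condensin I and 8.3 to 12.9 for condensin II in the control libraries, which overlap. After doxorubicin it was 1.4 to 2.21 for condensin I and 2.39 to 3.17 for condensin II, which do not. That separation rests on NCAPH, whose partner NCAPH2 had no row, since NCAPD2 and NCAPG alone averaged 1.97 to 3.08 TPM after doxorubicin and overlapped condensin II. The log2 ratio of both means, each with 1 TPM added, changed from 0.08 ± 0.20 in control to -0.45 ± 0.06 after doxorubicin (SD, n = 3 each), a change of -0.53, and with NCAPH left out the change was -0.30. The groups then overlapped, with -0.04 in control library 2 and -0.03 in doxorubicin library 3. These ratios are given with no p, as the genes were chosen with results of these data known.

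**Figure D4:**
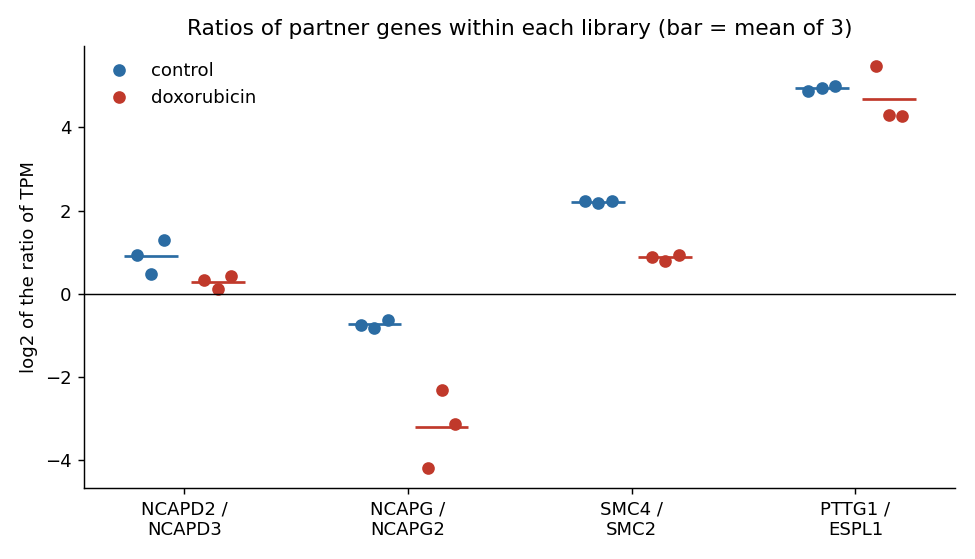
Log2 of the ratio of TPM between partner genes in each library, with control in blue, doxorubicin in red and a bar at the mean of 3 libraries. The groups are apart for NCAPD2 over NCAPD3, NCAPG over NCAPG2 and SMC4 over SMC2, and they overlap for PTTG1 over ESPL1.

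Securin and separase fell together. PTTG1 (ENSG00000164611, chromosome 5, 160421822 to 160428744) was the most abundant of the 9 genes in both groups, with 114.24, 114.12 and 107.12 TPM in control and 23.72, 23.17 and 21.55 TPM after doxorubicin. The replicates were close in both groups, and the pairs of libraries differed 4.52- to 5.3-fold. Its log2 fold change was -2.24 (standard error 0.07, limma adjusted p = 7.12e-09). PTTG1 has a close copy, PTTG2, elsewhere in the genome, and the pseudogenes PTTG3P and PTTG4P also carry its name. Pseudogenes named after other members are SMC4P1, NCAPD2P1, NCAPGP1 and NCAPGP2. None of these copies had a row, and reads could have been split between them and the members. ESPL1 (ENSG00000135476, chromosome 12, 53268299 to 53293643) had 3.87, 3.68 and 3.37 TPM in control and 0.53, 1.17 and 1.12 TPM after doxorubicin. Its mean was 3.87-fold lower, with doxorubicin library 1 the lowest, and its log2 fold change was -1.27 (standard error 0.16, limma adjusted p = 7.88e-05). The ratio of PTTG1 to ESPL1 was 29.5, 31 and 31.8 in the control libraries and 44.8, 19.8 and 19.2 in the doxorubicin libraries. The control ratio lay within the doxorubicin range, so the groups overlapped in this ratio.

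The order of levels differed between the groups. In control cells it was PTTG1, SMC4, NCAPD2, NCAPG2, NCAPD3, NCAPH, NCAPG, SMC2 and ESPL1, and the neighbours from NCAPG2 through NCAPG overlapped in their libraries. After doxorubicin it was PTTG1, NCAPD2, NCAPD3, SMC4, NCAPG2, SMC2, ESPL1, NCAPH and NCAPG, with overlap between NCAPD2 and NCAPD3, NCAPD3 and SMC4, NCAPG2 and SMC2, and NCAPH and NCAPG. NCAPH and NCAPG, which lay above SMC2 and ESPL1 in control cells, were the lowest after doxorubicin, without overlap with either.

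The 9 genes lie on 8 chromosomes, with NCAPD2 and ESPL1 both on chromosome 12, and all are annotated as protein-coding. Their genomic spans ran from 6923 bp for PTTG1, which exceeds 17.4% of the tested genes, to 75336 bp for NCAPD3, which exceeds 71.3%. The longest coding transcript had 5 exons in PTTG1 and 35 exons in NCAPD3. Several overlap other genes on the opposite strand. SMC4 does so with TRIM59, IFT80 and, over its whole span, AC079594.2, NCAPG with LCORL over 3664 bp, and NCAPD2 with MRPL51 over 486 bp. NCAPD3 overlaps AP001775.2 over 7343 bp, JAM3 over 1883 bp, VPS26B over 810 bp and the pseudogene AP001775.1 over 586 bp. Whether counting used the strand is not given in the sources used here, so reads in these stretches cannot be assigned with certainty.

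Other genes of chromosome segregation were taken from lists by role. Of the 8 genes that act with condensin on mitotic chromosomes, 7 had a row and all 7 were called lower, with a median log2 fold change of -3.40, where 48.5% of all genes tested were called lower, 6.28% at a fold change over 2, and the median of all was -0.28. They are TOP2A (topoisomerase II alpha), KIF4A (a chromokinesin), MKI67 (the Ki-67 protein of the chromosome surface), the kinase genes CDK1, AURKB and PLK1, and CCNB1, whose product cyclin B1 is the partner of CDK1. On log2(TPM + 1) their changes ran from -3.81 for PLK1 to -2.64 for KIF4A. With a pseudocount of 0.1 the order differed, and the changes ran from -5.88 for MKI67 to -3.30 for CCNB1. PLK1 was then at -4.66 and KIF4A at -5.38. KIF4A went from 5.44 ± 0.592 to 0.0333 ± 0.0153 TPM (SD, n = 3 each).

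Cohesin genes were lower as well. Of 16 genes of cohesin and its regulators, 12 had a row, 10 were tested and all 10 were called lower, with a median log2 fold change of -0.80, beside 48.5% called lower and a median of -0.28 over all genes tested. The ring and its STAG subunits, SMC1A, SMC3, RAD21, STAG1 and STAG2, lay between -1.05 and -0.75. After quantile normalization all 5 were still called, at -0.52, -0.43, -0.83, -0.70 and -0.43 in that order. On that scale 1664 of the 5721 genes tested were called lower. RAD21, the subunit that separase cuts, went from 37.8 ± 2.64 to 19.2 ± 1.29 TPM (SD, n = 3 each), or -0.94 on the log2 scale (limma adjusted p = 1.55e-05). Among the 10 tested genes the largest fall on log2(TPM + 1) was that of CDCA5, which encodes sororin, the protector of cohesion in G2, from 9.8 ± 0.924 to 0.857 ± 0.179 TPM (SD, n = 3 each), at -2.54. SGO2, a shugoshin that guards centromeric cohesin, was at -1.31, and PDS5A, a cohesin regulator, at -0.62, which was -0.32 after quantile normalization. SGO1 had 2.08, 2.17 and 1.65 TPM in control and 0, 0 and 0.05 TPM after doxorubicin, and ESCO2, a cohesin acetyltransferase, had 0.67, 0.96 and 0.81 TPM and then 0.05, 0.08 and 0.01 TPM. Both had a mean under 1 TPM over the 6 libraries and were not tested. The ratio of the means in control and after doxorubicin was 118 for SGO1, 17.4 for ESCO2 and 11.4 for CDCA5. For SGO1 and ESCO2 this divides by values near 0. Single pairs of libraries ran from 8.38- to 96-fold for ESCO2 and from 8.66- to 15.9-fold for CDCA5, so no order is read from these ratios. NIPBL, the cohesin loader, and WAPL, which releases cohesin, changed least, at -0.38 and -0.34, near the median of -0.28 over all genes, and after quantile normalization were at -0.02 and -0.05 and no longer called (limma adjusted p = 0.903 and 0.602).

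Of the SMC5/6 complex, a further relative of condensin, 3 of 6 genes had a row. SMC5 and SMC6 fell, with log2 fold changes of -0.75 and -0.61, and NSMCE1 rose from 63.6 ± 3.26 to 91.4 ± 2.16 TPM (SD, n = 3 each), at 0.52 (limma adjusted p = 0.000101). After quantile normalization SMC5 was at -0.38, and SMC6 was at -0.23 and no longer called. Of 16 genes of the APC/C and its activators, 8 had a row, of which 3 were called lower, 1 was called higher and 4 were not called. Over all genes tested, 48.5% were called lower and 22.7% higher, so the share called lower here was not above that background on TPM. After quantile normalization the same 3 genes stayed called lower, and 1664 of the 5721 genes tested were called lower. The comparison thus depends on the normalization. CDC20, the activator that directs the APC/C to securin, went from 46.2 ± 5.62 to 0.773 ± 0.243 TPM (SD, n = 3 each), or -4.74 on the log2 scale. The core subunits CDC23 and CDC27 were at -0.54 and -0.50, or -0.27 and -0.37 after quantile normalization, and ANAPC13 was at 0.28, a call that was lost after quantile normalization (0.24) and without control library 1 or doxorubicin library 1. ANAPC1, ANAPC2, ANAPC5 and CDC26 had log2 fold changes of -0.28, 0.08, 0.24 and 0.18 and were not called. ANAPC5 missed only the fold change of 1.2 (limma adjusted p = 0.00547). Mean TPM after doxorubicin was 106% of control for ANAPC2, 119% for ANAPC5 and 113% for CDC26. Each had passed 1.2-fold in the authors' comparison, so the authors' fold change is not the ratio of these means.

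**Figure D5:**
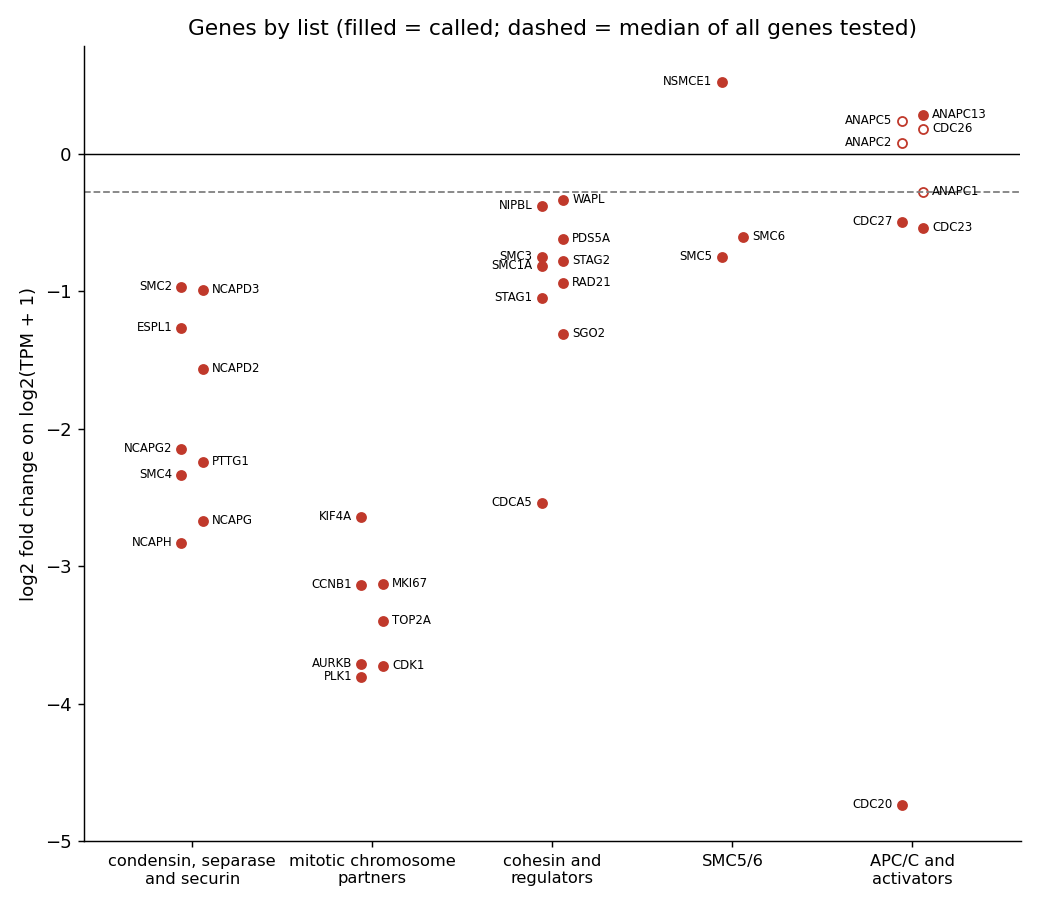
Log2 fold change on log2(TPM + 1) of each tested gene by list, filled where called, with the median of all genes tested as a dashed line at -0.28. The condensin, separase and securin genes lie between -2.83 and -0.97, the mitotic chromosome partners between -3.81 and -2.64, and the cohesin ring and STAG genes between -1.05 and -0.75.

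The genes outside these lists whose profile over the 6 libraries was closest to the mean profile of NCAPD2, NCAPG and NCAPH were HMGB2, ZWINT and IQGAP3, with root mean square differences of 0.041, 0.077 and 0.090 on log2(TPM + 1) after subtracting each gene's mean. HMGB2 had a mean of 78 TPM in control and 13.8 TPM after doxorubicin. For the mean of NCAPD3 and NCAPG2 the closest were KIF20B, WNT5A and DIAPH3, with differences of 0.071, 0.125 and 0.125. Both mean profiles average unlike changes. KIF20B, WNT5A and DIAPH3 were at -1.60, -1.61 and -1.54, between NCAPD3 (-0.99) and NCAPG2 (-2.15). HMGB2, ZWINT and IQGAP3 were at -2.41, -2.31 and -2.31, between NCAPD2 (-1.57) and NCAPG (-2.67). These genes are thus close to a mean and not to a single subunit gene. This measure covers 6 libraries in 2 groups, so that a like size of change weighs most in it.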

How the data were processed

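RNA of 9 WI-38 libraries in 3 groups was sequenced from both ends over 150 bp, and the 6 control and doxorubicin libraries were analysed. The authors' deposited table gives values per gene and library that were read as TPM, since the unit is not named. It also gives the authors' mean TPM of each group, their fold change as a ratio and as log2, and their p-value. These were used only for checks. All 6499 rows pass 1.2-fold and p under 0.05, and the authors' control mean equals the mean of the control libraries. The submitters' processing notes name CASAVA, HISAT2, StringTie, RSEM, DESeq2, edgeR and the mouse build GRCm38, without roles, while the identifiers are human. GENCODE release 29 (GRCh38) gave positions, by symbol for the named genes.

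Values were fitted as log2(TPM + 1) with limma 3.58.1 in R 4.3.3 (eBayes, trend and robust on), with group means only, for genes that averaged 1 TPM or more, and adjusted over all 5721 genes. On simulated data over 5721 genes for doxorubicin against control, 93 of 100 genes changed by 1 on the log2 scale and 100 of 100 changed by 2 were recovered, and 9 unchanged genes were called. Only 200 genes were changed there, with normal noise drawn independently for each gene. The real table was filtered on a difference and had far more genes called, so these figures give no error rate for its calls. Named were the 9 with a row, the called genes of each list, those near them that were not called, and the 3 closest profiles to each condensin. The genes and lists were chosen with earlier results of these data known. Alternatives were another pseudocount (0.1), other filters, quantile normalization, a block by replicate number, plain eBayes, other thresholds and fits without each library. Removing the pseudocount from the condensin ratio, or the H subunits, was added after seeing the data. Scripts ran in Python 3.11.15.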

Additional observations from a re-analysis of the deposited data

How the results depend on the processing

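All 9 genes kept their direction under every alternative run, and 120 of 122 values were also called. The exceptions were SMC2 (-0.97) and NCAPD3 (-0.99) when a fold change over 2 was required on log2(TPM + 1). With a pseudocount of 0.1 SMC2 was at -1.30 and NCAPD3 at -1.14, so their order and this limit depend on the scale. Alternatives that changed only a threshold reused the main fit and could not change a direction, and an unadjusted p could not cost a call. With a filter of at least 5 TPM, 5 of the 9 genes were kept. Without each library in turn, the log2 fold changes of the 9 genes ranged from -3.01 to -0.75, both of them without a control library. The smallest values over all alternatives were -0.63 for NCAPD3 and -0.64 for SMC2, after quantile normalization. Of all genes tested, 2775 were called lower and 1301 higher. The lower count was 1664 after quantile normalization, with 1880 then called higher, and 359 lower and 104 higher at a fold change over 2. The cause was not tested. Same-numbered libraries did not deviate together (r of deviations -0.063, -0.193 and -0.23), so the replicate number was taken as a name only, and no library correlated best with its own number. With the replicate block, 2670 genes were called lower and 1222 higher, all 9 genes stayed called, and among the other genes named only WAPL lost its call (limma adjusted p = 0.0522). The change in the log2 ratio of condensin I to II was -0.53. It was -0.71 with a pseudocount of 0.1, -0.74 with none and -0.30 without the H subunit (groups overlapping), and -0.64 to -0.47 without each library. The change for NCAPG over NCAPG2 was -0.52 with 1 TPM added and -2.48 with none. That for PTTG1 over ESPL1 was -0.97 and -0.26, with groups that overlap on the latter scale only. TPM keeps no depth, so the precision of values under 1 TPM, such as those of NCAPG and NCAPH after doxorubicin, is unknown. Without single libraries, NIPBL lost its call without control library 1 or 2 or doxorubicin library 2 (limma adjusted p = 0.115, 0.0682 and 0.118) and WAPL without control library 2 (0.063).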
